A study of Mus musculus and Heterocephalus glaber with 4 samples.

Results

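Broad sites of open chromatin in naked mole rat (Heterocephalus glaber) skin fibroblasts are described here. A site was included when a peak of at least 2000 bp in control cells overlapped, by at least 1 bp, a peak of at least 2000 bp in cells carrying SV40 large T antigen. Only scaffolds whose last peak in either list ended beyond 1 Mb were used. The rule gave 10496 sites among the 79538 control peaks on 216 such scaffolds, and 302336 peaks were called in all 4 libraries of the series. Widths in both lists chose these sites, so widths and everything that follows from them are given as descriptions with no test. They were set against 42992 narrow shared sites, which were control peaks under 2000 bp that overlapped large T peaks all under 2000 bp.

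The series profiled cultured adult skin fibroblasts of mouse and naked mole rat by ATAC-seq, an assay in which a transposase cuts open chromatin and tags the fragments for sequencing. For each species there was 1 library of control cells and 1 of cells given large T antigen. The naked mole rat cells of both groups were at passage 16 and grew at 32 °C in 15% serum, 3% oxygen and 5% CO2. The labels do not say how large T antigen was delivered, whether a line was 1 clone, or how many animals gave the cells. The peak lists carry no gene names, so the fibroblast label was not checked against marker genes, and no site was assigned to a gene. Each group is a single library with no replicate error, and read depth is unknown. Exact 95% binomial intervals cover counting error only and treat neighbouring sites as independent.

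Accessible chromatin marks promoters, enhancers and other regulatory DNA from which nucleosomes have been cleared. In mammalian cells, wide accessible stretches are often found at promoters rich in CpG dinucleotides and where several enhancers lie side by side. Large T antigen binds p53 and the retinoblastoma family, regulators of the cell cycle and of the response to DNA damage.

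Broad sites made up 13.2% of the control peaks on the scaffolds used and 26.1% of the sequence that these peaks covered (29.7 Mb). They were 17.1% of the 61235 control peaks that had any large T counterpart. Control widths had a median of 2568 bp, 90% of sites were at most 3880 bp wide, and the widest measured 8372 bp. On the large T side, 10485 peaks met the same rule, with a median of 2714 bp and a maximum of 8563 bp. Nearly all sites were 1 peak in each list: 73 broad control peaks overlapped 2 large T peaks, and 156 broad large T peaks overlapped 2 control peaks.

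Of 13772 control peaks at least 2000 bp wide, 76.2% (95% interval 75.5 to 76.9) were also broad in large T cells. Over all control peaks on these scaffolds, 19.6% overlapped a large T peak of at least 2000 bp. A further 19.0% of the broad control peaks had only narrower large T counterparts, and 4.78% (658 peaks) had none. In the other direction 65.9% (65.2 to 66.7) of 15903 broad large T peaks were broad in control cells. The large T list thus held more broad peaks, and a smaller share of them was broad in both. The share that was broad in both rose with control width, from 63.1% of peaks under 2250 bp to 92.2% of those of at least 5000 bp. The limit of 2000 bp is fixed, so a wider control peak can have a much narrower partner and still count. This rise is therefore partly set by the rule. The share with any large T counterpart was 93.8% to 96.7% over the classes of control width from 2000 bp up.

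The limit of 2000 bp cuts through a continuous range of widths. Of 2041 control peaks of 1900 to under 2000 bp, 1871 were paired with a large T peak, with a median partner of 1986 bp. Of 1764 control peaks of 2000 to under 2100 bp, 1649 were paired, with a median partner of 2107 bp, and 1036 were members. Just inside the limit, the site on JH602043 at 67096091 to 67098090 was 2000 bp wide in control and 2386 bp in large T cells. Just outside it, the site on JH602056 at 2944188 to 2946186 was 1999 bp wide in control and 2088 bp in large T cells.

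The edges of a broad site differed between the lists by little of its width. Among 10465 pairs matched one to one by longest overlap, the starts differed by a median of 129 bp and the ends by 114 bp, regardless of direction. For 42891 narrow pairs these differences were smaller, 108 and 96 bp. The shared bases made up a median fraction of 0.90 of the bases covered by either peak, against 0.81 for narrow pairs, a measure that rises with width when edges differ by like amounts. The large T peak was the wider one in 64.3% of broad pairs and 56.7% of narrow pairs, with median differences of 102 bp and 40 bp. Among broad pairs this share was 70.1% at control widths under 3000 bp, 51.5% from 3000 to under 5000 bp and 39.3% from 5000 bp up. The median differences in these classes were 131, 10 and -108 bp. Control width formed the classes and also enters the difference. Widths of the broad pairs were ordered alike in both lists, with Spearman's rho of 0.67. A rho is given here as a description across sites of 1 pair of libraries, which are not independent replicates.

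The scores of broad sites were mostly high, but the widest sites were not the highest. The score is the authors' value per peak, is not defined in the sources used here, and was used only to rank peaks within a list. A percentile of 100 is the highest score. The median broad site stood at percentile 83.5 (control list) and 85.3 (large T list), against 49.8 and 52.4 for narrow shared sites. Broad sites formed 60.8% of the highest 1% of control peaks (470 of 773) and 0.956% of the lowest decile (76 of 7953). Even so, 1193 broad sites (11.4%) lay in the lower 50% of the control list. Among narrow pairs, score rose with width (rho 0.64 in the control list). Among broad pairs it did not, with rho of -0.11 in the control list and -0.17 in the large T list.

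**Figure D1:**
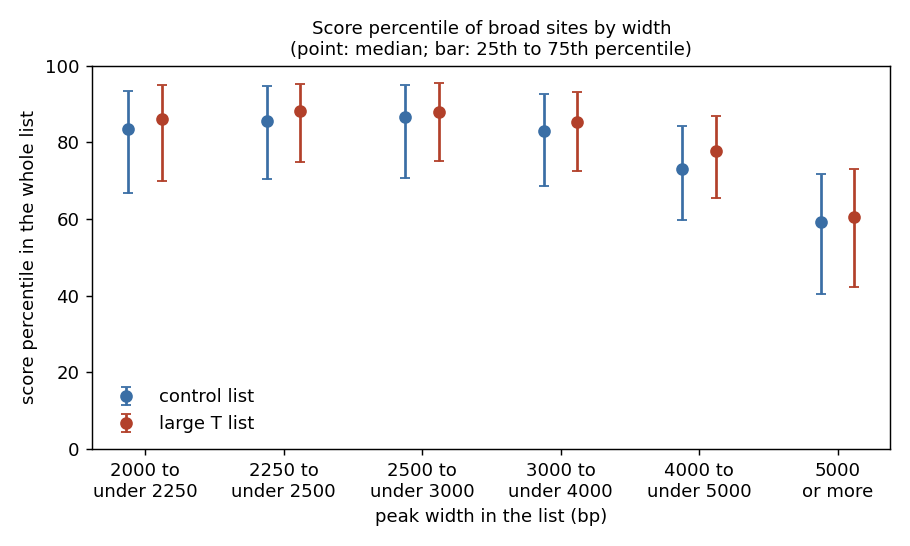
Score percentile within the whole list (vertical axis, 0 to 100) of broad sites grouped by peak width in bp (horizontal axis), with the median as a point and the 25th to 75th percentile as a bar, for the control and the large T list. The medians lie between 83.0 and 88.2 up to 4000 bp. They fall to 72.9 (control) and 77.8 (large T) from 4000 to under 5000 bp, and to 59.2 and 60.6 for sites of at least 5000 bp.

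Sites of at least 5000 bp in control cells stood lowest in rank among the width classes of broad sites, at the end of a gradual fall. There were 285 on 119 scaffolds, with a median control percentile of 59.2, and 7 of them (2.46%) were in the highest decile. Of the 7455 sites under 3000 bp, 38.1% were in the highest decile, and their median percentile was 85.2. The 2756 sites of 3000 to under 5000 bp lay between, with 27.6% in the highest decile and a median percentile of 80.4. The sites of at least 5000 bp were wide in both cell populations, with median widths of 5748 bp in control and 5492 bp in large T cells. Of these 285 sites, 191 were at least 5000 bp in large T cells too. Within this class score fell as width grew, with rho of -0.53 in the control list. Of these sites 27.7% lay within 10 kb of another broad site, against 21.3% of sites of 3000 to under 5000 bp and 16.4% of sites under 3000 bp. The class of the next shared site on the scaffold did not rise steadily with width. It was broad after 23.4% (66 of 282), 24.4% (671 of 2748) and 21.1% (1570 of 7432) of sites, in the same order of classes.

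The 5 widest control sites stood low in their list, at percentiles 2.49 to 38.0. The widest, on JH602047 at 16667829 to 16676200, was 8372 bp wide in control and 8552 bp in large T cells, at percentiles 7.78 and 4.14. The site on JH602070 at 5566224 to 5574419 measured 8196 bp in control and 7127 bp in large T cells, at percentiles 2.49 and 47.1. The site on JH602162 at 5003303 to 5011346 grew from 8044 bp in control to 8563 bp, the largest width of the large T sites, where it stood near the bottom of the list at rank 83266 of 83297. The remaining sites of this group, on JH602082 at 302991 to 310916 and on JH602140 at 2874061 to 2881948, stood at control percentiles 17.4 and 38.0.

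The 5 highest-scoring broad sites were 2150 to 2915 bp wide in control cells. They ranked 4 to 11 in the control list, and their large T peaks of 2228 to 3355 bp ranked between 4 and 42. The site on JH602073 at 71219 to 73555 ranked 4 in both lists, and that on JH602043 at 45697208 to 45699795 ranked 5 in both. The site on JH602052 at 9234701 to 9237051 ranked 7 in control cells and 42 with large T antigen, where its peak was 1004 bp wider. Those on JH602045 at 17472190 to 17475104 and on JH602044 at 5628936 to 5631085 had control ranks of 9 and 11 and large T ranks of 14 and 7. No site was thus in both groups of 5, the widest and the highest-scoring in control cells.

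Broad sites lay far apart on most of the sequence. The gap from one broad site to the next on the same scaffold had a median of 88.1 kb, with the middle 50% between 29.3 and 224 kb. Narrow shared sites, which were more numerous, had a median gap of 27.3 kb. Gaps above 1 Mb made up 4.13% of broad gaps (425 of 10285) and 0.36% of narrow gaps, and the longest broad gap was 6.72 Mb. Gaps depend on the number of sites, so the next shared site was also looked up, a measure that does not depend on that number in the same way.

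After a broad site, the next shared site was broad in 22.1% of cases (21.3 to 22.9), against 15.6% (15.3 to 16.0) after a narrow site and 17.1% over all shared sites. The difference was largest at short range. At gaps under 1 kb, 33.0% (72 of 218, 26.8 to 39.7) of the sites that followed a broad site were broad, against 7.55% (6.03 to 9.31) after a narrow site. At gaps of 1 to 2 kb, 45.5% (37.9 to 53.1) of the sites that followed a broad site were broad, against 11.1% (9.06 to 13.5) after a narrow site. Wide control peaks that lie under the same broad large T peak are broad together. A narrow control peak under such a large T peak counts in neither class, so the difference at short range is partly set by the rule. At 5 to 10 kb the shares were 23.5% and 16.3%, and at 50 to 100 kb they were 15.8% (13.6 to 18.1) and 14.1% (13.2 to 15.1), with intervals that overlapped. Beyond 100 kb the shares were 15.0% (12.1 to 18.4) and 10.8% (9.76 to 11.9), with intervals that did not overlap. Without the gaps under 2 kb, chosen as a setting once the data had been seen, the overall shares were 21.4% and 15.9%. In the large T list the overall shares were 22.2% and 15.7%.

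**Figure D2:**
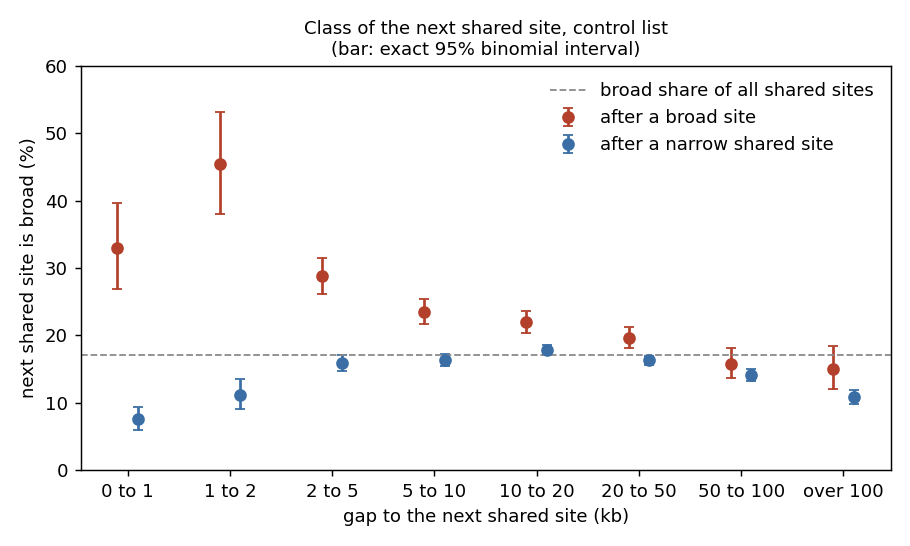
Percent of next shared sites that were broad (vertical axis) by the gap to that site in kb (horizontal axis), after a broad site and after a narrow shared site of the control list, with exact 95% binomial intervals. The share after a broad site falls from 45.5% at 1 to 2 kb to 15.0% beyond 100 kb, and it lies above the share after a narrow site in every gap class. The dashed line marks the 17.1% of all shared sites that were broad.

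The surroundings of broad sites were also slightly richer in shared sites. A mean of 3.98 other shared sites lay within 50 kb on either side of a broad site, against 3.48 for a narrow site. Control peaks with no large T counterpart numbered a mean of 0.90 within the same distance of a broad site and 0.95 of a narrow site. The next control peak was absent from the large T list in 18.7% (18.0 to 19.5) of cases after a broad site and 22.1% (21.7 to 22.5) after a narrow site, against 23.0% of all control peaks, a share that also falls where shared neighbours are denser. In the large T list the next peak was absent from control cells in 21.5% and 24.4% of cases, against 25.7% of all large T peaks. Few sites of either class lay within 10 kb of the start of a scaffold or of its last peak's end, 0.381% of broad and 0.472% of narrow sites.

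Chains of broad sites with gaps of at most 10 kb held 1887 sites (18.0%) in 855 chains. Most chains were pairs: 718 had 2 sites, 104 had 3, 27 had 4, 5 had 5 and 1 had 6. Sites in chains were a little wider than sites alone, with median control widths of 2691 and 2546 bp, yet stood lower in the control list, at median percentiles of 72.2 and 85.3. The middle 50% of percentiles ran from 52.7 to 86.5 in chains and from 70.7 to 94.2 for sites alone, so the groups overlapped widely.

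The largest chain held 6 broad sites over 39.9 kb of JH602082 (21611258 to 21651133). Its sites were 2005 to 3419 bp wide in control cells, covered 36.3% of the stretch and stood at percentiles 39.8 to 96.9. All 7 control peaks inside it were shared, and the large T list had 6 peaks there, all of them broad, 1 of which spanned 2 control peaks. A chain of 5 sites covered 51.2% of 35.0 kb on JH602069 (852256 to 887253), where the large T list had 4 broad peaks. The next in order held 5 sites over 37.2 kb of JH602100 (13244708 to 13281861).

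JH602069 carried 3 of the 6 chains with at least 5 sites, and the other 2 on this scaffold lay next to each other. This pair of chains, singled out after its values were seen, held 10 broad sites in 92.3 kb (24400504 to 24492798), with 12.5 kb between the chains. Control widths ran from 2115 to 4614 bp and control percentiles from 11.1 to 88.8. All 10 broad sites had a large T peak of their own. The only other control peak inside was 5366 bp wide, lay between the chains and had no large T counterpart. The 100 kb window from 24400001 of this scaffold held 10 broad sites, the most of any window of that size.

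**Figure D3:**
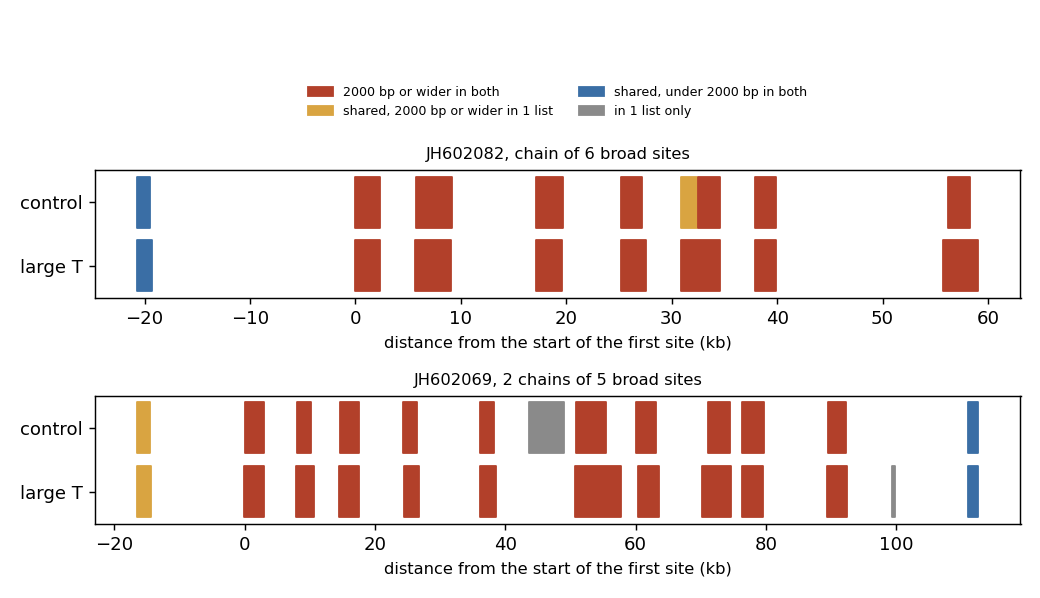
Peaks of the control list (upper row of each panel) and the large T list (lower row), drawn to scale by distance in kb from the start of the first broad site, on JH602082 and on JH602069, coloured by class. The 6 broad control sites of the upper chain, another broad site to its right and the 10 of the lower panel each meet a broad large T peak, and the 5366 bp control peak between the 2 chains of JH602069 meets none.

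Broad sites were spread more unevenly over the scaffolds than narrow shared sites. Over the whole 2549 Mb there were 4.12 broad and 16.9 narrow sites per Mb, and 211 of the 216 scaffolds carried at least 1 broad site. Among the 145 scaffolds with at least 100 shared sites, the density of broad sites ran from 1.12 to 20.1 per Mb with a median of 4.07. Narrow density ran from 6.95 to 32.5 per Mb with a median of 18.0. The standard deviation over scaffolds was 56.2% of the mean for broad and 26.3% for narrow density, and the smaller numbers of broad sites add counting error to the first value. Scaffolds dense in one class tended to be dense in the other (rho 0.74 across the 145 scaffolds). Broad sites per shared site also differed: this share ran from 7.69% to 32.2%, and its interval lay above the overall 17.1% on 16 scaffolds and below it on 17. On denser scaffolds the median broad site stood lower in the control list (rho -0.44), while its width varied little with density (rho 0.05).

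Of these 145 scaffolds the densest, JH602221, carried 48 broad sites in 2.38 Mb, or 20.1 per Mb, and 32.2% (24.8 to 40.4) of its shared sites were broad. JH602145 followed with 99 sites in 7.63 Mb and a share of 27.3% (22.8 to 32.2), and JH602220 with 30 sites in 2.37 Mb and 24.2% (17.0 to 32.7). The median gap between broad sites was 24.7 kb on JH602221 and 29.2 kb on JH602145. At the sparse end, JH602150 had 9 broad sites in 8.01 Mb, JH602123 had 14 in 11.6 Mb and JH602127 had 14 in 11.3 Mb. Their shares were 8.11% (3.77 to 14.8), 10.9% (6.11 to 17.7) and 7.69% (4.27 to 12.6). The 9 to 14 broad sites of these sparse scaffolds stood high in the control list, at median percentiles of 93.1 to 95.5, against 69.0 on JH602221. The large T list gave 9, 13 and 14 broad sites on the sparse scaffolds and 48, 99 and 30 on the dense ones. Among scaffolds with fewer shared sites, JH602259 reached 19.9 broad sites per Mb from 20 sites and JH602239 reached 19.0 from 29 sites, while JH602164 had none in 7.29 Mb.

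**Figure D4:**
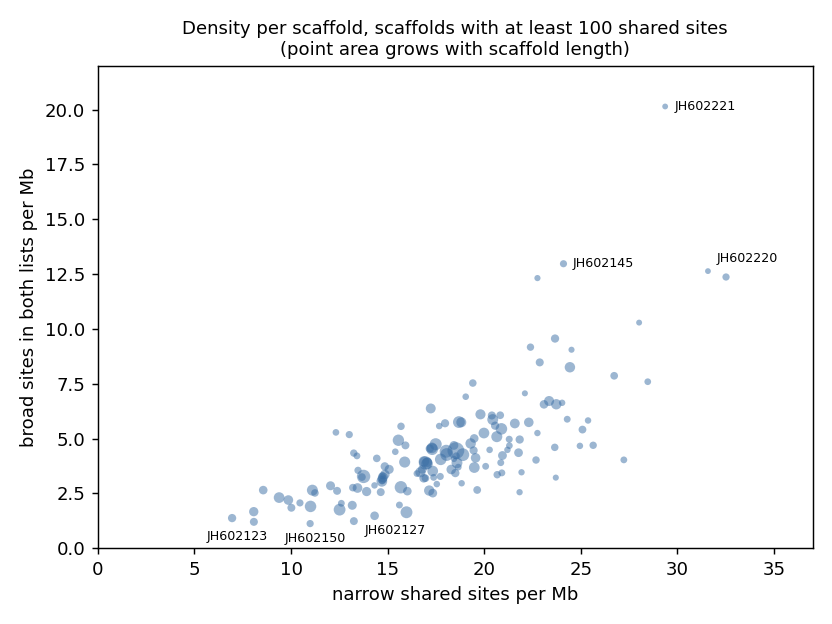
Broad sites per Mb (vertical axis) against narrow shared sites per Mb (horizontal axis) for the 145 scaffolds with at least 100 shared sites, 1 point per scaffold with area growing with its length. The 3 densest and 3 sparsest scaffolds are named, and JH602221 lies above the other points at 20.1 broad sites per Mb.

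The same unevenness appeared in windows of fixed size. The 2450 windows of 1 Mb held a mean of 4.03 broad sites, 19.1% held none and the fullest, on JH602079 from 21000001 to 22000000, held 28. The variance of the counts beyond their mean, divided by the squared mean, is near 0 for sites scattered at random and does not grow with their number. It was 0.68 for broad and 0.28 for narrow sites at 1 Mb, and 1.22 and 0.42 at 100 kb. Shared sites that were broad in 1 list only came close to the broad sites, at 0.55 for 1 Mb and 1.07 for 100 kb, so the unevenness was not particular to sites broad in both lists. Control peaks with no large T counterpart gave 0.29 at 1 Mb and 0.63 at 100 kb.

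Scores of broad sites were ordered more alike in the 2 lists than those of narrow sites. Spearman's rho was 0.86 over 10465 broad pairs and 0.63 over 42891 narrow pairs. The classes cover different parts of the score range, so both were also compared within bands of control rank among all 60695 shared pairs. The Spearman correlation was higher for broad pairs in each of 7 bands, at 0.12 to 0.60 against 0.09 to 0.42. Up to rank 90 the classes lay close within each band, for example 0.12 against 0.09 for control ranks of 50 to 60. The widest difference there was 0.29 against 0.21, for ranks of 25 to 50. Among pairs in the highest 10% of control rank the correlation was 0.60 for 2982 broad and 0.42 for 2054 narrow pairs. In that band 1.48% of broad and 14.1% of narrow pairs stood over 25 percentile points lower in large T cells. In each band the median large T rank of broad pairs was above that of narrow pairs, for example 61.4 against 50.4 for control ranks of 50 to 60. The rule required a wide large T peak, and width and score went together over all pairs (rho 0.64 in the large T list), so a higher large T rank is partly set by the rule.

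**Figure D5:**
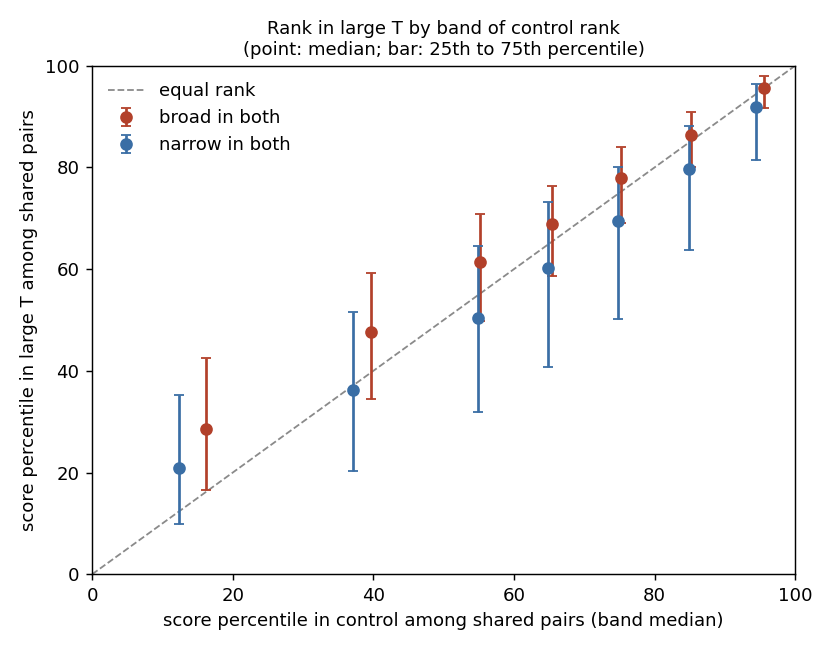
Score percentile in large T cells (vertical axis) against that in control cells (horizontal axis), both among all shared pairs, in 7 bands of control rank, with medians as points and the 25th to 75th percentile as bars, for broad and narrow pairs. Broad pairs lie above narrow pairs in every band, and the bars of narrow pairs reach further down from the middle bands on.

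Over the whole range of ranks, large differences in rank were fewer among broad than among narrow sites. A total of 405 pairs (3.87%) stood over 25 percentile points higher in large T cells and 379 (3.62%) over 25 points lower. Over all shared pairs the shares were 9.51% and 10.8%, and among narrow pairs 10.6% and 12.3%. Pairs above a control percentile of 75 cannot shift up by over 25 points, and the median control rank of broad pairs was 79.0. In bands of control rank up to 60 the order of upward shifts was the reverse. Up to rank 25, 25.3% of broad and 21.9% of narrow pairs stood over 25 points higher in large T cells. The median control rank in that band was 16.2 for broad and 12.3 for narrow pairs. The shares were 15.6% and 10.7% between 25 and 50, and 7.36% and 3.55% between 50 and 60. Between 60 and 70 they were alike, at 1.15% and 1.17%. Downward shifts stayed fewer among broad pairs in each band in which they can occur, for example 6.32% against 22.8% between 50 and 60. Broad pairs were chosen for a wide large T peak and narrow pairs for a narrow one. Width and score went together over all pairs, so these differences in shifts are partly set by the rule. The median shift was 1.00 point, with the middle 50% between -4.19 and 7.41. Pairs that shifted up had a median control width of 2541 bp and those that shifted down 2755 bp. Yet upward shifts were most frequent at control widths from 5000 bp up, at 10.9% (31 of 285). They made up 3.78% of pairs under 3000 bp and 3.38% from 3000 to under 5000 bp. Downward shifts made up 4.21%, 3.15% and 4.83% of these classes. The sites from 5000 bp up had a median control percentile of 59.2, with more room to shift up.

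The largest upward shifts coincided with peaks that were split in control cells. In 54 of the 405 upward pairs (13.3%), the large T peak overlapped 2 control peaks, against 0.94% of pairs within 25 points. In 17 of the 379 downward pairs (4.49%), the control peak overlapped 2 large T peaks, against 0.558% of pairs within 25 points. Of the 5 largest upward shifts, 4 were of this kind. On JH602070, the control site at 6489477 to 6491719 ranked at percentile 1.27 of the control list, and the large T peak at 6489167 to 6493052 at 87.9. Another control peak under the same large T peak, at 6491731 to 6493053, stood at percentile 86.3. On JH602050 the control site at 22003914 to 22006163 stood at percentile 19.1, its neighbour at 22001679 to 22003871 at 84.0, and the large T peak that spanned both at 87.7. The sites on JH602073 at 2493253 to 2495921 and on JH602148 at 2363642 to 2365838 likewise had a higher-scoring control neighbour under the same large T peak. Only the site on JH602080 at 11591372 to 11595046 had 1 peak in each list, at percentile 3.93 in control and 81.9 in large T cells, with widths of 3675 and 3423 bp. Among the 10245 broad pairs with 1 peak in each list, 3.41% shifted up and 3.51% down, and rho was 0.86.

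The 5 largest downward shifts each had a single control peak under the matched large T peak. Whether other large T peaks lay under the same control peaks was not listed for these sites. The site on JH602069 at 24177458 to 24181428 kept its extent, 3971 bp in control and 3911 bp in large T cells, while its percentile was 86.6 in the control list and 23.1 in the other. The site on JH602067 at 11109113 to 11111332 stood at percentile 94.6 in control and 39.7 in large T cells, at widths of 2220 and 2290 bp. The site on JH602074 at 15700991 to 15703015 stood at 90.7 and 36.1, at widths of 2025 and 2037 bp. On JH602192 (3767168 to 3771334) and JH602049 (1581392 to 1584847) the matched large T peak was also narrower, with width differences of -1655 and -1450 bp. In 3 of the 5 sites the rank thus differed with little difference in width.

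Median rank shifts differed between scaffolds, and those of broad and narrow sites had the same sign on 57 of 71 scaffolds and opposite signs on 14. These are the scaffolds with at least 50 broad pairs, where the median shift of broad pairs ran from -2.21 points on JH602066 to 8.11 points on JH602094. JH602141 and JH602145 followed the latter at 8.07 and 7.14 points. The narrow pairs of JH602094, JH602141 and JH602145 shifted by a median of 5.97, 10.2 and 10.7 points. On JH602086 the medians were 2.48 points for broad and -1.90 points for narrow pairs. Across the 71 scaffolds the medians of both classes tended to go together, with rho of 0.75 and Pearson's r of 0.82, or 0.76 without the 2 scaffolds farthest from the middle of the narrow shifts. Both classes come from the same 2 libraries, so these medians are not independent of each other.

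Broad sites found by the same rule in mouse fibroblasts were also followed by broad sites more often than narrow sites were. Their median width difference over all broad pairs had the opposite sign to that in naked mole rat. Mouse cells of both groups were also at passage 16 and grew at 37 °C. There were 8243 such sites, 60.2% (59.4 to 61.0) of the 13698 broad control peaks. The mouse large T list held fewer broad peaks than the control list, 9644, whereas in naked mole rat it held more. The share depends on which list is counted, and only the control direction is given for mouse. After a broad site the next shared site was broad in 19.3% (18.5 to 20.2) of cases, against 14.2% (13.9 to 14.6) after a narrow site. At gaps of 1 to 2 kb the mouse shares were 38.2% (30.0 to 47.0) and 10.4% (8.19 to 13.0). At 50 to 100 kb they were 18.8% (16.2 to 21.6) and 12.1% (11.2 to 13.0), with intervals that did not overlap there, unlike in naked mole rat. Whether the species differ was not tested. The Spearman correlation of scores was 0.88 over 8238 broad pairs and 0.70 over 38958 narrow pairs. The mouse large T peak was the wider one in 25.5% of broad pairs, against 64.3% in naked mole rat, and the median difference was -192 bp. Narrow pairs moved the same way within each species, with median differences of -121 bp in mouse and 40 bp in naked mole rat. With 1 pair of libraries per species, species, temperature and library cannot be told apart.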

How the data were processed

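ATAC-seq peak lists of 2 naked mole rat libraries were compared, with 2 mouse lists for the closing comparison. The authors deposited 1 list per library that gives each peak its scaffold or chromosome, its start and end, a name and a score. Peaks are named after MACS in the files, with settings not given in the sources used here, and the deposited score starts at 50 in both naked mole rat lists. Per the submitters' processing notes, CASAVA (beside which the notes set 1.4), Bowtie, SAMtools and bedtools were used and the build was mm9. Scaffold names are those of naked mole rat, so mm9 cannot be their build, and their assembly release is not given. Start and end, in base pairs in the authors' files, were read as BED intervals and are printed 1-based.

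Peaks overlapping by at least 1 bp were shared, and pairs were matched by longest overlap. Scaffold length was set to where its last peak ends. Percentiles were formed within the whole list, or among shared pairs for shifts. Depth is unknown, so the precision behind each peak is too. No test between conditions was possible with 1 library per group. Sites were named by rule: the 5 widest, the 5 highest in score, the 5 largest rank differences each way, the 3 largest chains, the 3 densest and 3 sparsest scaffolds, and those beside the width limit. Members and measures were chosen with earlier results of these data known. The functions recovered planted values on simulated lists, and overlap counts equalled those of bedtools 2.31.1. Python 3.11.15, numpy 2.4.6, pandas 2.3.3, scipy 1.17.1 and matplotlib 3.10.9 were used.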

Additional observations from a re-analysis of the deposited data

Results flagged for a closer look

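In broad pairs the median width, large T minus control, was 102 bp in naked mole rat and -192 bp in mouse, opposite directions in the 2 species. The naked mole rat value ran from 131 bp at control widths under 3000 bp to -108 bp from 5000 bp up. Mouse pairs were not divided by width. The difference was not tested, since each species had 1 pair of libraries.

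Scaffolds whose last peak ended within 1 Mb were outside the description. They carried 103 control peaks that were broad in both lists, on 52 of 541 short scaffolds with a summed length of 29.1 Mb. These made up 12.4% (10.2 to 14.8) of 832 shared control peaks there, against 17.1% on the longer scaffolds, and 3.54 per Mb against 4.12.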

How the results depend on the processing

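Of 85 recomputed values over 13 measures, 45 stayed within 1.5 times (counts) or the main value's 95% interval (others), and 40 moved. The order of broad against narrow sites was kept in 78 of 79 values that have a narrow counterpart. The exception was the share within 10 kb of another site of its class at a limit of 1500 bp, 29.5% for broad and 27.8% for narrow sites. At 1500 bp there were 21023 broad sites, 8.24 per Mb, 43.0 kb apart, with median widths of 2107 bp (control) and 2237 bp (large T) and percentiles of 80.8 and 83.1. The Spearman correlation was 0.84, 4.66% of pairs stood over 25 points higher and 4.95% lower, and 39.9% of next sites were broad (31.0% after a narrow site). At 3000 bp there were 2436 sites, 0.87 per Mb, 398 kb apart, with widths of 3623 and 3784 bp and percentiles of 78.4 and 81.0. Of control peaks of that width 70.2% were as broad in large T cells, 4.11% of pairs stood lower, 8.66% of sites lay within 10 kb of another and 7.13% of next sites were broad (3.73% after a narrow site). In the higher-scoring 50% of each list, density was 3.71 per Mb, spacing 109 kb, large T width 2690 bp, percentiles 86.6 and 88.2, and rho 0.82. There, 7.61% of pairs stood higher and 7.18% lower, 11.9% of sites lay within 10 kb of another, and 32.5% of next sites were broad (27.8% after a narrow site). An overlap of at least 50% of each peak gave 74.8% of broad control peaks broad in both and 17.1% of sites within 10 kb of another. Counting large T peaks gave 65.9% in place of 76.2%. Within 5 and 20 kb, 8.94% and 31.5% of sites had another. Per shared site in place of per Mb, the median scaffold had 16.4% broad sites. Pairs with 1 peak in each list, and the gaps of at least 2 kb, were settings chosen after seeing the data, and the former gave 3.41% of pairs higher. The cause of these shifts was not tested. No paired analysis was possible because each group had 1 library. Depth, which limits how many peaks are called and how wide they are, is unknown.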
